A study of Mus musculus with 55 samples.

Results

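The response of PPARα-null mouse hearts to Wy14643, a synthetic PPARα agonist also called pirinixic acid, was examined across all bright genes. These hearts lack the receptor that the compound is made to activate. The arrays were chosen by their titles: 5 PPARα-null (KO) hearts given Wy14643 and 5 KO control hearts, 10 of the 55 arrays of the series. Each gene was represented by its probe set with the highest mean over all arrays. Of 18193 genes represented in this way, 8237 were bright, meaning over 20 on the linear scale (log2 4.32) in at least 3 arrays. The series measured whole heart mRNA on Affymetrix arrays, 1 array per heart. All mice were male Sv129, and the wild type (WT) mice were 129S1/SvImJ while the KO mice were PPARalpha -/- on 129S4/SvJae, so any difference between genotypes is one of genotype and substrain together. Their age is given both as 9 to 12 weeks and as 2 to 6 months. All mice ate an AIN76A diet with olive oil for 2 weeks, were fasted for 4 h from early morning, received 400 µL by gavage and were killed 6 h later. The Wy14643 mice received it at 10 mg/mL in 0.5% carboxymethyl cellulose. The protocol gives the controls that vehicle alone, while another label reads none. The other KO hearts, 20 in all, received triolein, trilinolein, trilinolenin or tridocosahexaenoin, 5 hearts each. No carboxymethyl cellulose is listed for them, so compound, vehicle and fat differ together between these and the Wy14643 hearts. The WT hearts set beside them were 3 controls and 4 given Wy14643.

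PPARα is a nuclear receptor that pairs with RXR on DNA and, when bound by fatty acids or a fibrate-like drug, raises genes of fatty acid uptake, oxidation and ketone formation. The heart burns mostly fatty acids, and genes such as Angptl4, Ucp3, Pdk4 and Acot1 are among its usual PPAR targets there. An agonist can also act through other receptors or enzymes, and a mouse without the receptor is the standard way to see what such a compound does apart from it.

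In the 10 KO arrays the levels of the targeted gene did not separate the groups. Ppara was at a log2 level of 7.45 ± 0.10 (SD, n = 5) in KO control and 7.42 ± 0.18 (SD, n = 5) in KO Wy14643 hearts, below the 8.18 ± 0.25 (SD, n = 3) of WT control hearts. Where these probe sets lie relative to the disruption was not examined, and the remaining signal does not show intact receptor mRNA. The ventricular genes Myh6 (14.83 and 14.83) and Myl2 (13.94 and 13.97 in KO control and KO Wy14643 hearts) were at the top of the scale. The list of 8 to which they belong is given with the markers below. Of 7 measured liver genes 0 were bright. Pairs of the 10 arrays correlated at 0.994 to 0.996 and held at most 0.162% identical values. None of 4 array measures (the Actb and Gapdh signal ratios of the 3′ to the 5′ end, the share of bright probe sets and the array median) differed in an exact permutation test, two-sided, with raw p from 0.0952 to 0.802 and adjusted p from 0.381 to 0.802. With 5 hearts against 5 the smallest p that test can give is 0.00794. The deposited values were quantile normalized, so the share of bright probe sets and the array median had little room to differ. By its labels each array holds the RNA of a separate heart, so p-values rest on variation between animals.

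Wy14643 went with few called changes in hearts without PPARα. Compared with KO control hearts, 4 genes rose and 2 fell out of 8237 (limma, adjusted p under 0.05; 0.0728% of the genes tested), and 5 of the 6 changed by more than 1.5-fold. The risers were Zbtb16, Fam107a, Timp4 and Rhobtb1, and the genes that fell were Myorg and Cxxc5. An unadjusted p under 0.05 was reached by 814 genes (9.88%), 301 higher and 513 lower, where 411.8 would be the number at a uniform p. The arrays of the groups did not overlap for 176 genes (2.14%), 84 higher and 92 lower after Wy14643. The median log2 change over all bright genes was -0.02, with 42% of genes above 0. The count of 6 rested on single hearts. It was 1, 2, 0, 1 and 28 without KO control replicates 1 to 5, and 4, 0, 0, 0 and 2 without KO Wy14643 replicates 1 to 5. With array weights it was 98, and with only these 10 arrays in the fit it was 0.

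Zbtb16, a zinc finger transcription factor known to be induced by glucocorticoids, showed the largest of the called changes. Its log2 levels were 8.35, 8.34, 7.67, 6.57 and 8.61 in the 5 KO control hearts and 9.26, 9.45, 9.95, 9.91 and 9.50 in the 5 KO Wy14643 hearts. Every treated heart lay above every control heart, and control replicate 4 lay lowest. The log2 change was 1.70 ± 0.32 (SE; 3.26-fold; 95% interval 1.06 to 2.35; limma adjusted p = 0.0225). Its 2 other probe sets were higher as well, by 1.76 and 1.03. The gene lies on GRCm38.p6 at chr9:48651797-48836225.

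Fam107a, which encodes an actin-binding protein induced by stress, was at 5.99, 6.98, 6.69, 7.14 and 8.21 in control hearts. It was at 8.23, 8.54, 8.82, 8.93 and 7.97 after Wy14643. The groups overlapped through control replicate 5, which was above treated replicate 5. The log2 change was 1.49 ± 0.32 (SE; 2.81-fold; limma adjusted p = 0.0418), and its second bright probe set gave 1.42. The gene lies at chr14:8296270-8317607.

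Timp4, an inhibitor of matrix metalloproteinases abundant in the heart, was at 9.05, 9.35, 8.88, 8.93 and 9.08 in control hearts and at 9.58, 9.76, 9.99, 9.74 and 9.56 after Wy14643. The groups did not overlap, and the spread within each was small (SD 0.18 and 0.17). The log2 change was 0.67 ± 0.14 (SE; 1.59-fold; limma adjusted p = 0.0390), with 0.72 for the other probe set. The gene lies at chr6:115244444-115252205.

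Rhobtb1, an adaptor for a cullin ubiquitin ligase, was at 9.98, 10.05, 9.85, 10.16 and 10.47 in control hearts. After Wy14643 it was at 10.51, 10.69, 10.71, 10.82 and 10.66. The groups did not overlap, by a narrow margin between control replicate 5 and treated replicate 1. The log2 change was 0.57 ± 0.12 (SE; 1.49-fold; limma adjusted p = 0.0413), with 0.67 for the other probe set. The gene lies at chr10:69151058-69291791.

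The genes that fell were dimmer. Myorg, a glycosidase named for its part in muscle formation, was at 4.13, 4.58, 4.33, 4.51 and 3.67 in control hearts and at 3.77, 3.41, 3.70, 3.38 and 3.07 after Wy14643. Control replicate 5 lay among the treated hearts. Both means were under the brightness minimum, so the log2 change of -0.78 ± 0.16 (SE; limma adjusted p = 0.0390) is not exact in size. The gene lies at chr4:41491847-41503135. Cxxc5, a zinc finger protein that binds unmethylated CpG sites, was at 6.34, 6.21, 6.33, 5.74 and 5.98 in control hearts and at 5.52, 5.62, 5.36, 5.32 and 5.55 after Wy14643. The groups did not overlap. The log2 change was -0.65 ± 0.14 (SE; limma adjusted p = 0.0413), and its second probe set gave -0.63.

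**Figure D1:**
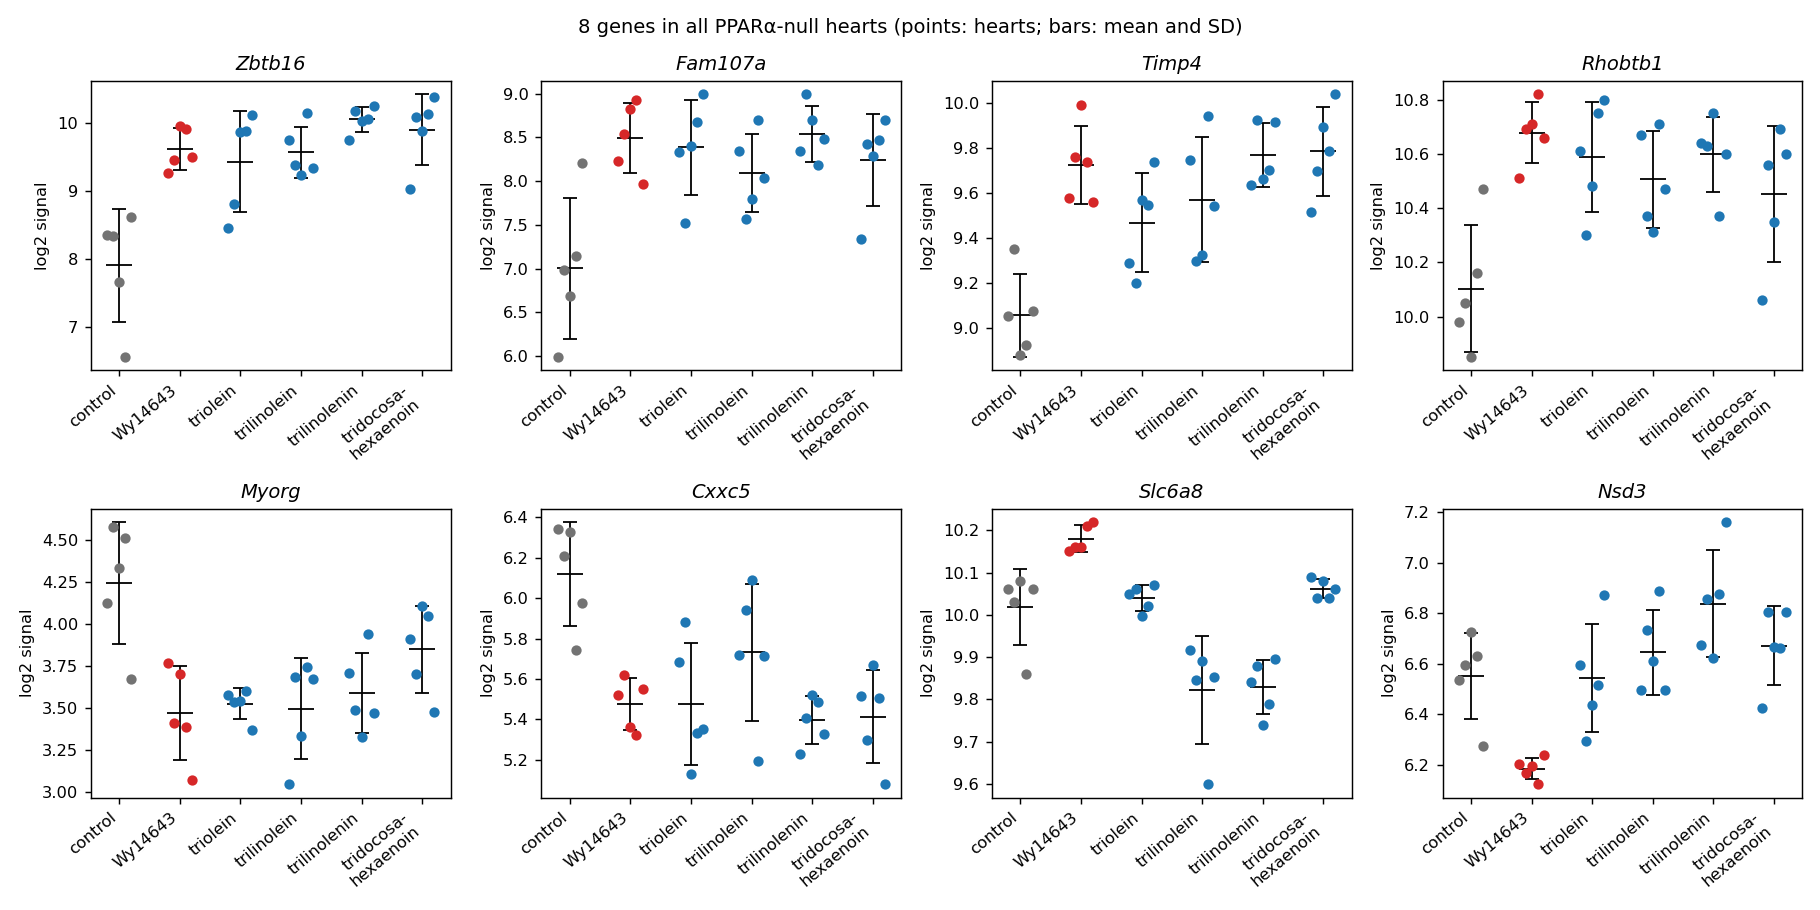
Log2 signal of the 6 called genes, and of Slc6a8 and Nsd3, in each of the 30 KO hearts, by treatment. Points are hearts, and bars give the mean and SD of 5 hearts. For Zbtb16, Timp4, Rhobtb1 and Cxxc5 no control heart overlaps the Wy14643 hearts, for Fam107a and Myorg control replicate 5 does, and in all 6 some triglyceride hearts lie within the control range. For Slc6a8 and Nsd3 the Wy14643 hearts lie outside all 25 other hearts.

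The same treated hearts were then set against the 20 KO hearts given triglycerides, which share no array with the controls. This comparison shares the treated arrays with the one above, so the 2 are given side by side and not as independent evidence. None of the 6 genes was called. Zbtb16 differed by a log2 value of -0.12 ± 0.25 (SE; 95% interval -0.63 to 0.38), against the 1.70 over control hearts. Its level in the triglyceride hearts ran from 8.46 to 10.38 with a median of 9.88, and 19 of the 20 lay above every KO control heart. All 5 Wy14643 hearts lay within that range. Fam107a differed by 0.18 ± 0.26 (-0.33 to 0.70), Timp4 by 0.08 ± 0.11 (-0.14 to 0.29) and Rhobtb1 by 0.14 ± 0.10 (-0.05 to 0.33). For these 3 genes 14, 16 and 14 of the 20 triglyceride hearts lay above every KO control heart. Myorg differed by -0.15 ± 0.13 and Cxxc5 by -0.03 ± 0.11, with 11 and 17 of 20 triglyceride hearts below every control heart. In each of the 6 genes the 5 Wy14643 hearts lay within the range of the triglyceride hearts, except 1 heart for Rhobtb1.

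Against the mean of the 4 triglyceride groups 85 genes were called (limma, adjusted p under 0.05; 1.03% of genes), 30 higher and 55 lower in the Wy14643 hearts, and 15 by more than 1.5-fold. The effects of the compound, the vehicle and the fat cannot be told apart here. Of the 85, 60 had the same sign against the KO controls and 25 the opposite sign, and 30 differed from the controls by less than 0.1 in log2. Hmox1, the heme oxygenase of the oxidative stress response, had the largest difference from the triglyceride hearts among the genes described, -1.75 ± 0.44. Against control it differed by -0.17 ± 0.56. Its levels after Wy14643 were 5.57, 5.34, 4.92, 5.41 and 4.80, while the triglyceride hearts ran from 4.17 to 9.34. The metallothionein Mt2 differed by -0.9995 ± 0.24 and 0.39 ± 0.30, and Pdk4, the kinase that restrains glucose oxidation, by -0.63 ± 0.16 and 0.24 ± 0.20. The fatty acid transporter Cd36 differed by -0.17 ± 0.04 and -0.04 ± 0.05. Another set kept its size in both comparisons. The prostaglandin receptor gene Ptger4 differed by -1.02 ± 0.24 and -1.07 ± 0.30, the folate enzyme Mthfd1 by -0.30 ± 0.07 and -0.36 ± 0.09, and the early response gene Ier5 by 0.47 ± 0.12 and 0.48 ± 0.16. These genes were chosen for description after their values were seen. The count of 85 was 1 without KO Wy14643 replicate 5, 18, 27 and 31 without replicates 1, 2 and 4, and 167 without tridocosahexaenoin replicate 4.

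The Wy14643 hearts were also compared with the mean of all 5 other KO groups, a comparison added after the data were seen. A difference from that mean does not show a difference from every group. The comparison called 10 genes (0.121%), 1 higher and 9 lower. All 10 were also called against the triglycerides and 0 against the controls alone. Apart from the controls, the 5 groups are the triglyceride groups, and the treated arrays are the same. The calls shared with the triglyceride comparison are therefore largely built in and are not separate evidence. In 2 of 8237 genes (0.0243%) the 5 Wy14643 hearts lay outside the range of all 25 other KO hearts. Slc6a8, the creatine transporter that supplies heart muscle with creatine, was at 10.15, 10.16, 10.16, 10.21 and 10.22 after Wy14643. It was at 10.06, 10.03, 10.08, 9.86 and 10.06 in control hearts and from 9.60 to 10.09 in triglyceride hearts. Every treated heart lay above every other KO heart, by a small amount. The log2 difference from the mean of all other KO groups was 0.23 ± 0.04 (SE; limma adjusted p = 0.00575). It was 0.24 ± 0.04 against triglycerides (adjusted p = 0.00109) and 0.16 ± 0.05 against control (adjusted p = 0.212). In WT hearts the Wy14643 change of Slc6a8 was 0.08 ± 0.06 (adjusted p = 0.843), and the difference between the genotypes was 0.09 ± 0.08, which did not pass the test.

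Nsd3, a histone lysine methyltransferase, was at 6.20, 6.17, 6.19, 6.12 and 6.24 after Wy14643. It was at 6.54, 6.59, 6.73, 6.63 and 6.27 in control hearts and from 6.30 to 7.16 in triglyceride hearts. All treated hearts lay below all others, closest to control replicate 5. The log2 difference from the mean of all other KO groups was -0.47 ± 0.10 (SE; limma adjusted p = 0.0312). Against control alone it was -0.37 ± 0.13 (adjusted p = 0.277). The other genes called lower were Wdr33, a subunit of the polyadenylation machinery (-0.22 ± 0.04), Rsrc2 (-0.18 ± 0.04), Arrdc3, an arrestin family member (-0.60 ± 0.13), the casein kinase gene Csnk1g3 (-0.47 ± 0.10), Stard4, a cholesterol carrier whose mean after Wy14643, 3.88, was under the brightness minimum (-0.46 ± 0.10), Etfbkmt, which methylates an electron transfer flavoprotein (-0.36 ± 0.08), Mgp, an inhibitor of calcification (-0.37 ± 0.08), and 1 gene with a clone name. Of these, Etfbkmt, Mgp and Arrdc3 differed from control by 0.19, -0.05 and -0.11, so their gap was to the triglycerides. Slc6a8 was called in 29 of 30 fits that each left out 1 KO heart and Nsd3 in 25. Without KO Wy14643 replicate 5 neither was called (adjusted p = 0.0935 and 0.128) and the count was 0. Without replicates 1 to 4 it was 6, 2, 5 and 2, and without tridocosahexaenoin replicate 4 it was 19.

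The PPAR targets show what the compound did where its receptor was present and what was measured without it. In WT hearts Wy14643 raised 4 genes and lowered 1 (limma, adjusted p under 0.05; 0.0607%). The count of 5 was 0 without WT control replicate 1 or 3 or WT Wy14643 replicate 4, 9 without WT control replicate 2, and 16 and 8 without WT Wy14643 replicates 1 and 3. Angptl4, an inhibitor of lipoprotein lipase, was at 6.25, 6.46 and 5.30 in WT control hearts and 8.76, 8.18, 7.75 and 8.03 after Wy14643, without overlap, a log2 change of 2.17 ± 0.46 (SE; adjusted p = 0.0409). In KO hearts it was at 7.79, 6.87, 6.94, 7.11 and 6.89 in controls and 7.30, 7.12, 7.43, 7.71 and 7.47 after Wy14643. Here the groups overlapped, control replicate 1 being the highest of all 10, and the change was 0.29 ± 0.38 (95% interval -0.49 to 1.06). Acot1, a cytosolic acyl-CoA thioesterase, changed by 1.93 ± 0.36 in WT hearts (adjusted p = 0.0122) and by 0.28 ± 0.30 in KO hearts, where the control mean of 4.12 was under the brightness minimum. Mlycd, the malonyl-CoA decarboxylase that relieves the block on fatty acid import, rose by 0.78 ± 0.16 in WT hearts (adjusted p = 0.0194) and differed by -0.26 ± 0.13 in KO hearts. Its KO levels were 7.27, 6.86, 7.09, 6.81 and 6.69 in controls and 6.52, 6.99, 6.46, 6.78 and 6.69 after Wy14643, so the groups overlapped. The hydrolase gene Abhd1 changed by 1.02 ± 0.19 in WT and 0.06 ± 0.16 in KO hearts, and Frem2, an extracellular matrix protein, by -0.82 ± 0.16 and -0.12 ± 0.14. The means of Frem2 were under the brightness minimum in all 4 of these groups, so its changes are not exact in size.

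**Figure D2:**
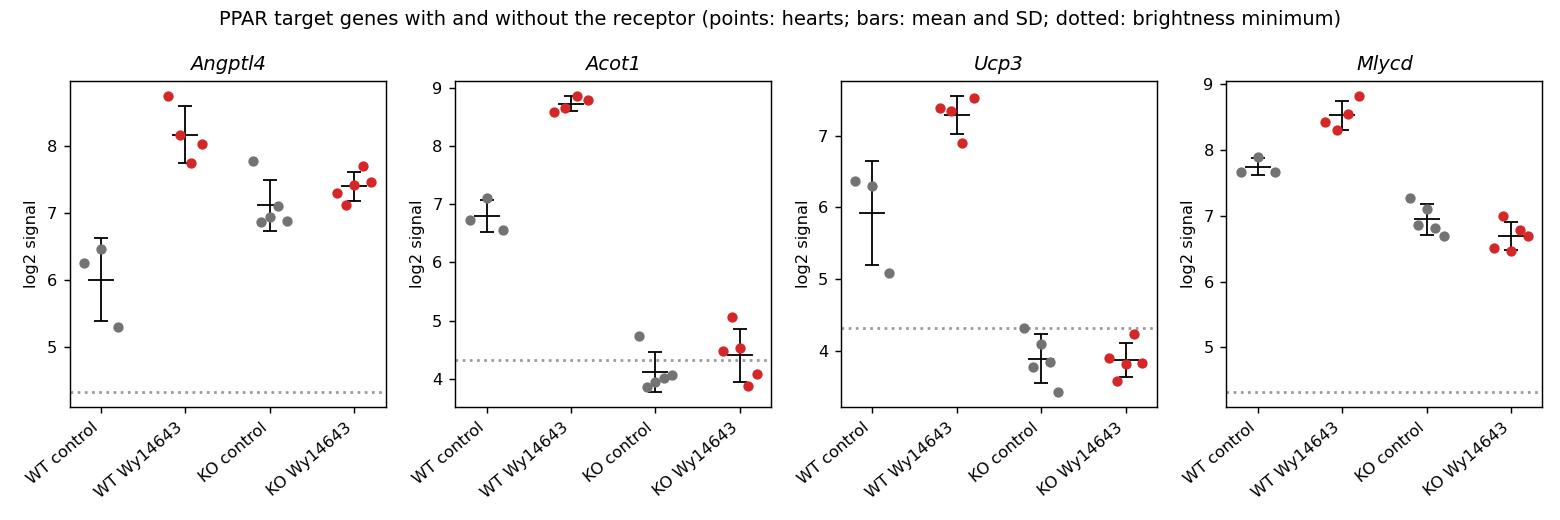
Log2 signal of Angptl4, Acot1, Ucp3 and Mlycd in WT and KO hearts with control gavage or Wy14643. Points are hearts, bars give the mean and SD (n = 3, 4, 5 and 5), and the dotted line is the brightness minimum of log2 4.32. The WT groups separate in all 4 genes, while the KO groups overlap in all 4.

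The difference between the genotypes was tested as an interaction, and 0 genes were called (limma; 0%), with 362 at an unadjusted p under 0.05. The lowest adjusted p was that of Mlycd, 0.0517, where the KO change was lower than the WT change by a log2 value of -1.04 ± 0.20. For Angptl4 this difference was -1.89 ± 0.60, for Acot1 -1.65 ± 0.47 and for Ucp3 -1.38 ± 0.42, with unadjusted p of 0.00299, 0.00105 and 0.00196 and adjusted p of 0.794, 0.640 and 0.640. Ucp3, an uncoupling protein of fatty acid oxidizing mitochondria, changed by 1.36 ± 0.32 in WT hearts (adjusted p = 0.0702). In KO hearts its change was -0.02 ± 0.27 (95% interval -0.56 to 0.52) between means under the brightness minimum. Under alternative settings 1 or 2 interactions were called, and 1 was called without WT Wy14643 replicate 2, KO control replicate 5 or KO Wy14643 replicate 2.

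The gene lists below were chosen with earlier results of these data known, so their counts are descriptions. Of the 47 PPAR target genes listed, 35 were bright. In KO hearts 0 of the 35 were called, 17 lay above 0, and their median log2 change was -0.01 beside -0.02 over all bright genes. In WT hearts the same 35 genes had 3 called, 33 above 0 and a median of 0.16, where 44.1% of all bright genes lay above 0 in WT hearts with a median of -0.02. Plin4, a lipid droplet coat protein, differed by 0.30 ± 0.13 in KO and 0.53 ± 0.16 in WT hearts, and the thioredoxin inhibitor Txnip by 0.23 ± 0.10 and 0.33 ± 0.13. These were the 2 members with an unadjusted p under 0.05 in KO hearts, and neither was called (adjusted p = 0.446 and 0.464). Pdk4 changed by 0.24 ± 0.20 in KO and 0.87 ± 0.25 in WT hearts, and Ehhadh, an enzyme of peroxisomal oxidation, by -0.27 ± 0.16 and 0.56 ± 0.19. The droplet proteins Plin5 and Plin2 differed by 0.26 ± 0.18 and -0.04 ± 0.12 in KO hearts and by 0.48 ± 0.22 and 0.31 ± 0.14 in WT hearts. The mitochondrial thioesterase Acot2 gave 0.17 ± 0.16 and 0.45 ± 0.19, the peroxisomal catalase gene Cat 0.08 ± 0.07 and 0.22 ± 0.08, and the dehydrogenase Hsdl2 -0.03 ± 0.07 and 0.21 ± 0.09. Of the carnitine system, which carries fatty acids into mitochondria, Cpt1a gave -0.16 ± 0.16 and 0.07 ± 0.19, Cpt2 -0.01 ± 0.06 and 0.19 ± 0.07, and the carrier Slc25a20 0.08 ± 0.08 and 0.19 ± 0.10. Acadl, Decr1 and Fabp3 differed by 0.04, -0.06 and -0.02 in KO hearts, with SE of 0.04, 0.06 and 0.03. Genes of mitochondrial fatty acid oxidation (24 bright) had a median of -0.01 in KO hearts with 0 called, and the 19 bright genes of peroxisomal lipid metabolism had -0.04 with 0 called. The 13 bright genes linked to PPARδ or PPARγ had a median of 0.04, with 0 called and 7 above 0. Among the receptors themselves, Pparg differed by 0.59 ± 0.25, the coactivator Ppargc1a by 0.42 ± 0.17 and Rxrg by -0.23 ± 0.08 in KO hearts, none of them called (adjusted p = 0.428, 0.381 and 0.277). Ppard differed by 0.01 ± 0.12 and Rxra by 0.13 ± 0.09.

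**Figure D3:**
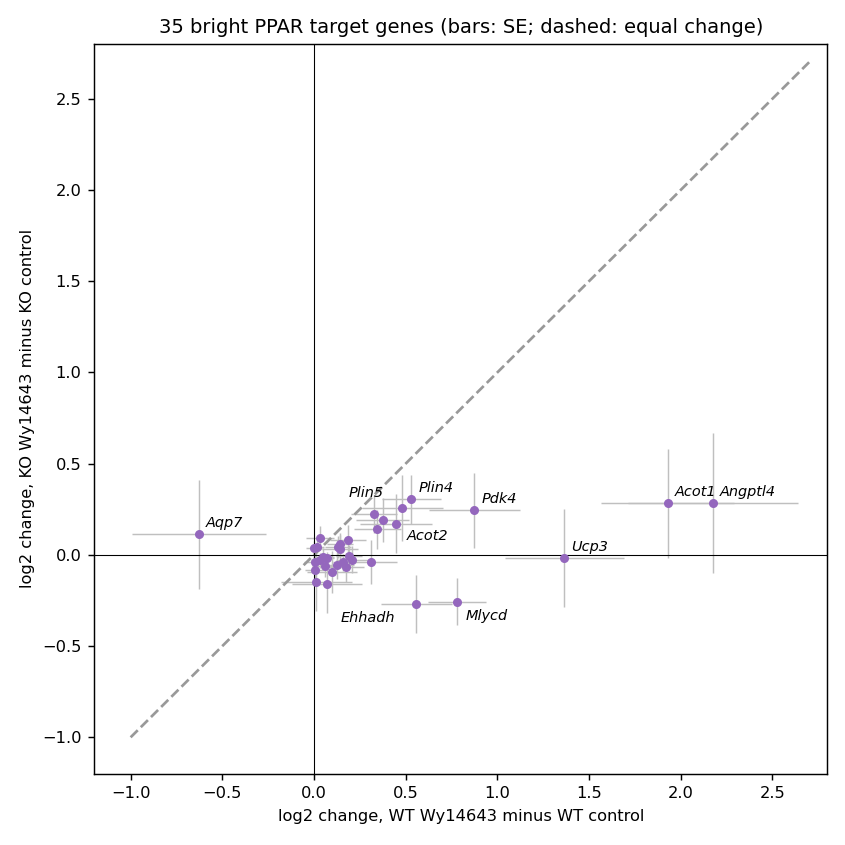
Log2 change with Wy14643 of the 35 bright PPAR target genes in KO hearts against the change in WT hearts. Points are genes, bars are SE, and the dashed line marks equal change. In WT hearts 33 of the 35 lie above 0, while in KO hearts all lie between -0.27 and 0.30.

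Genes known to respond to glucocorticoids, the adrenal steroids released in stress and fasting, lay mostly above the KO controls. Of 22 bright members 1 was called (Zbtb16), where 0.0728% of all bright genes were called. Of the 22, 19 lay above 0, and the median log2 change was 0.29, beside -0.02 and 42% above 0 for all bright genes. The list was chosen with earlier results of these data known, so its counts are a description. An unadjusted p under 0.05 was reached by 7 of the 22, all higher, where 3.65% of all bright genes were higher at that p. Fkbp5, an immunophilin that restrains the receptor for these steroids, was at 7.38, 6.79, 6.25, 7.15 and 7.51 in control hearts and 7.61, 8.14, 8.74, 8.80 and 7.63 after Wy14643. The groups did not overlap, and the difference of 1.17 ± 0.35 was not called (limma adjusted p = 0.188). The sulfotransferase Sult1a1 differed by 0.60 ± 0.18, the transcription factor Cebpb by 0.57 ± 0.16, Klf15 by 0.48 ± 0.19, Tsc22d3 (the leucine zipper protein GILZ) by 0.42 ± 0.16 and the NF-κB inhibitor Nfkbia by 0.30 ± 0.15, none of them called. The 3 members below 0 were Per1 (-0.05 ± 0.22), Lpin1 (-0.06 ± 0.08) and Lcn2 (-0.13 ± 0.51, between means under the brightness minimum). Against the triglyceride hearts the same 22 genes had a median of -0.19 with 3 above 0 and 2 called lower, Mt2 and Pdk4. Of all bright genes 46% lay above 0 there, with a median of -0.01, and 1.03% were called. The sign of the list median turned with the comparator. In WT hearts their median was 0.19 with 21 above 0, beside 44.1% of all bright genes, and 1 was called, Angptl4. Both Pdk4 and Angptl4 also stand in the list of PPAR targets.

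**Figure D4:**
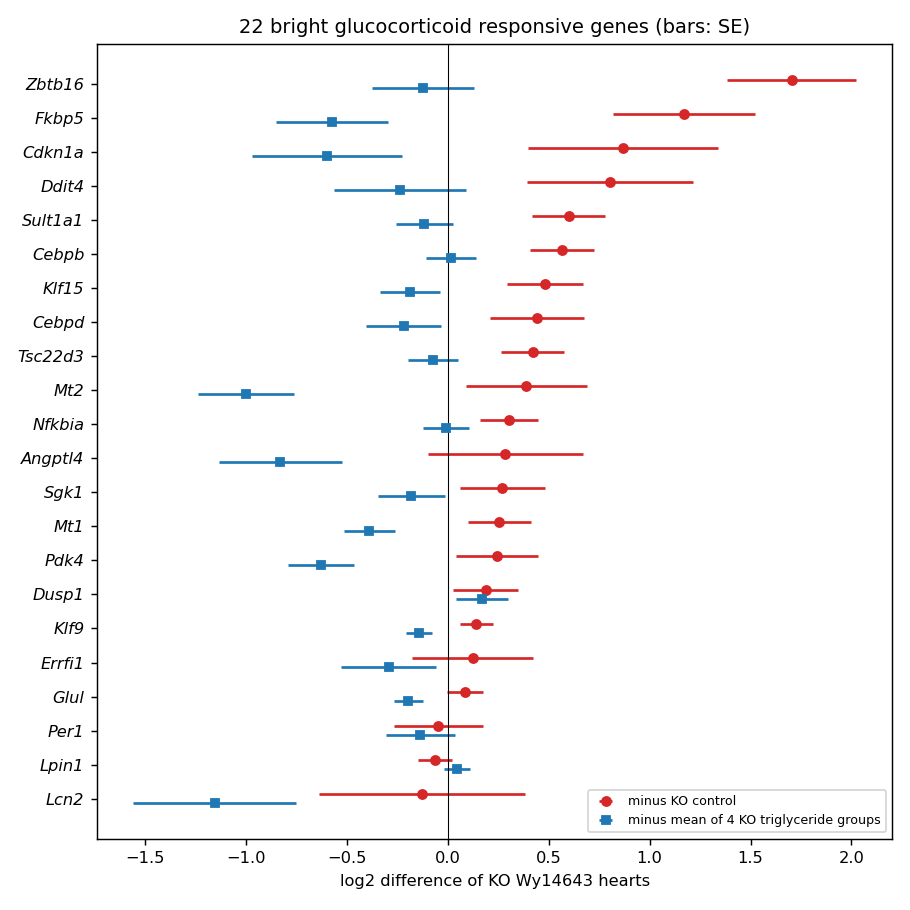
Log2 difference of the KO Wy14643 hearts from KO control hearts (circles) and from the mean of the 4 KO triglyceride groups (squares) for 22 bright glucocorticoid responsive genes. Bars are SE. Against control 19 genes lie above 0, and against triglycerides 3 do.

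FoxO targets and genes of muscle atrophy, which rise in fasted muscle, had 23 bright members. Of these 20 lay above 0 against control, 8 at an unadjusted p under 0.05 and 0 called, with a median of 0.17. Over all bright genes 42% lay above 0 and 3.65% were higher at that p. The translation inhibitor Eif4ebp1 differed by 0.38 ± 0.11, the transcription factors Foxo1 and Foxo3 by 0.37 ± 0.18 and 0.37 ± 0.13, the sestrin Sesn1 by 0.31 ± 0.11 and the ubiquitin ligase Fbxo32 by 0.20 ± 0.07. Against triglycerides the median was -0.09, with 4 above 0, beside -0.01 and 46% for all bright genes. Klf15 stands in both this list and the one before. Of 23 bright interferon response genes 21 lay above 0 against control, with a median of 0.20, 0 called and 0 at an unadjusted p under 0.05. Against triglycerides 9 of these 23 lay above 0, with a median of -0.09, and in WT hearts 10 did, with a median of -0.01.

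Lists tied to other known routes of drug response held no called gene against the KO controls. Against the triglycerides the NRF2 targets Hmox1 and Slc3a2 and the lipogenesis and cholesterol list member Stard4 were called lower. Slc3a2 also stands in the integrated stress list (27 bright) and is its only call. Over all bright genes 1.03% were called in that comparison. Xenobiotic metabolism and transport had 28 bright members, 23 above 0 against control, with a median of 0.08 and 1 at an unadjusted p under 0.05 (Sult1a1). Of all bright genes 42% lay above 0 there. Against triglycerides 11 of the 28 lay above 0, with a median of -0.025, beside 46% of all bright genes. The NRF2 targets, genes of the antioxidant response, had 27 bright members, a median of 0.02 and 0 at an unadjusted p under 0.05. The quinone reductase Nqo1 differed by -0.15 ± 0.16 and the thioredoxin reductase Txnrd1 by -0.08 ± 0.08. Of genes that drugs often raise in liver, Alas1, the first enzyme of heme synthesis, differed by -0.35 ± 0.22 and Cyp1b1 by 0.28 ± 0.24, and Cyp1a1 was not bright. The clock gene Per1, also a member of the glucocorticoid list, differed by -0.05 ± 0.22. In genes of lipogenesis and cholesterol synthesis 18 of 24 lay below 0, with a median of -0.10. Stard4 differed there by -0.49 ± 0.13 and the synthase Hmgcs1 by -0.22 ± 0.07, without a call, the Stard4 mean after Wy14643 being under the brightness minimum. The integrated stress gene Chac1, a glutathione-degrading enzyme, was at 4.25, 4.65, 4.14, 4.25 and 4.15 in control hearts and 4.68, 5.01, 5.14, 5.28 and 5.07 after Wy14643. The groups did not overlap, and the difference of 0.75 ± 0.23 was not called (adjusted p = 0.212). The control mean of 4.29 was under the brightness minimum, so the size is not exact. Against triglycerides it was -0.39 ± 0.19.

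The genes with the smallest p among those not called were examined next. Among those higher, Fam117b differed by 1.16 ± 0.27 (limma adjusted p = 0.0974), Rnf144b, a ubiquitin ligase, by 0.95 ± 0.22 (0.108), Rasgef1b, an exchange factor for small GTPases, by 1.22 ± 0.29 (0.110), the guanine nucleotide exchange factor Mcf2l by 0.73 ± 0.18 (0.114) and the adenosine-forming ectonucleotidase Nt5e by 0.95 ± 0.24 (0.152). Of these, Mcf2l did not overlap between the groups. In the others control replicate 5 reached into the treated range. Without that heart 28 genes were called, and all 5 were among them. Among those lower, the Toll-like receptor adaptor Tirap differed by -0.44 ± 0.10 (adjusted p = 0.108). Egln3, a prolyl hydroxylase of the hypoxia response, differed by -0.86 ± 0.22 and Sirt5, a mitochondrial desuccinylase, by -0.28 ± 0.07, with no overlap in either. The ciliary transport gene Ttc30b differed by -0.44 ± 0.11 and the transferrin receptor gene Tfrc by -1.27 ± 0.33, with overlap in both (adjusted p = 0.152 for each of these 4). Tfrc was at 7.14, 7.64, 7.60, 8.44 and 7.01 in control hearts and 6.60, 5.93, 5.75, 6.11 and 7.08 after Wy14643, and all 20 triglyceride hearts lay below every control.

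The spread within a group differed by gene. In KO controls the SD was 0.83 for Zbtb16 and 0.81 for Fam107a, but 0.23 for Rhobtb1 and 0.18 for Timp4. Over all 55 hearts, most of the genes examined here deviated together with Zbtb16. Deviations of each heart from its group mean were taken over all 55 hearts and correlated with those of Zbtb16 for 6 genes, with permutation within groups (100000 resamples, two-sided, adjusted over the 6). Timp4 gave Pearson r = 0.77 and a Spearman coefficient of 0.77 (permutation p = 1e-05 for both, the smallest it can give, adjusted 6e-05 and 2e-05), and r = 0.757 without the 2 hearts farthest out, KO control replicate 4 and WT Wy14643 replicate 1. Fkbp5 gave r = 0.672 and a Spearman coefficient of 0.704 (permutation p = 3e-05 and 1e-05, adjusted 9e-05 and 2e-05), with r = 0.707 without those hearts. Fam107a gave r = 0.66 and a Spearman coefficient of 0.731 (permutation p = 1e-04 and 1e-05, adjusted 2e-04 and 2e-05), and r = 0.702 without them. Rhobtb1 gave r = 0.584 and a Spearman coefficient of 0.608 (permutation p = 5e-05 and 2e-05, adjusted 1e-04 and 3e-05), and r = 0.636. Cxxc5 ran the other way, with r = -0.452 and a Spearman coefficient of -0.547 (permutation p = 0.006 and 4e-04, adjusted 0.007 and 5e-04), and r = -0.587. Myorg gave r = -0.266 and a Spearman coefficient of -0.199 (permutation p = 0.08 and 0.2, adjusted 0.08 and 0.2), and r = -0.198, which did not pass. Within KO hearts alone (n = 30) r with Zbtb16 was 0.731 for Timp4, 0.531 for Fkbp5 and 0.521 for Fam107a, and within WT hearts (n = 25) 0.83, 0.857 and 0.857. In the 10 KO control and Wy14643 hearts the values were 0.579, 0.389 and 0.209, and that of Cxxc5 was 0.356, opposite in sign to the whole. Rhobtb1 gave 0.301 and Myorg -0.426 in these 10 hearts. The median r over all bright genes was -0.00467, and 1.91% exceeded 0.5. The genes with the highest r, named after their values were seen, were Xdh (0.786), Ramp2 (0.774), Wasf2 (0.774), Timp4 and Slc43a3 (0.758).

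**Figure D5:**
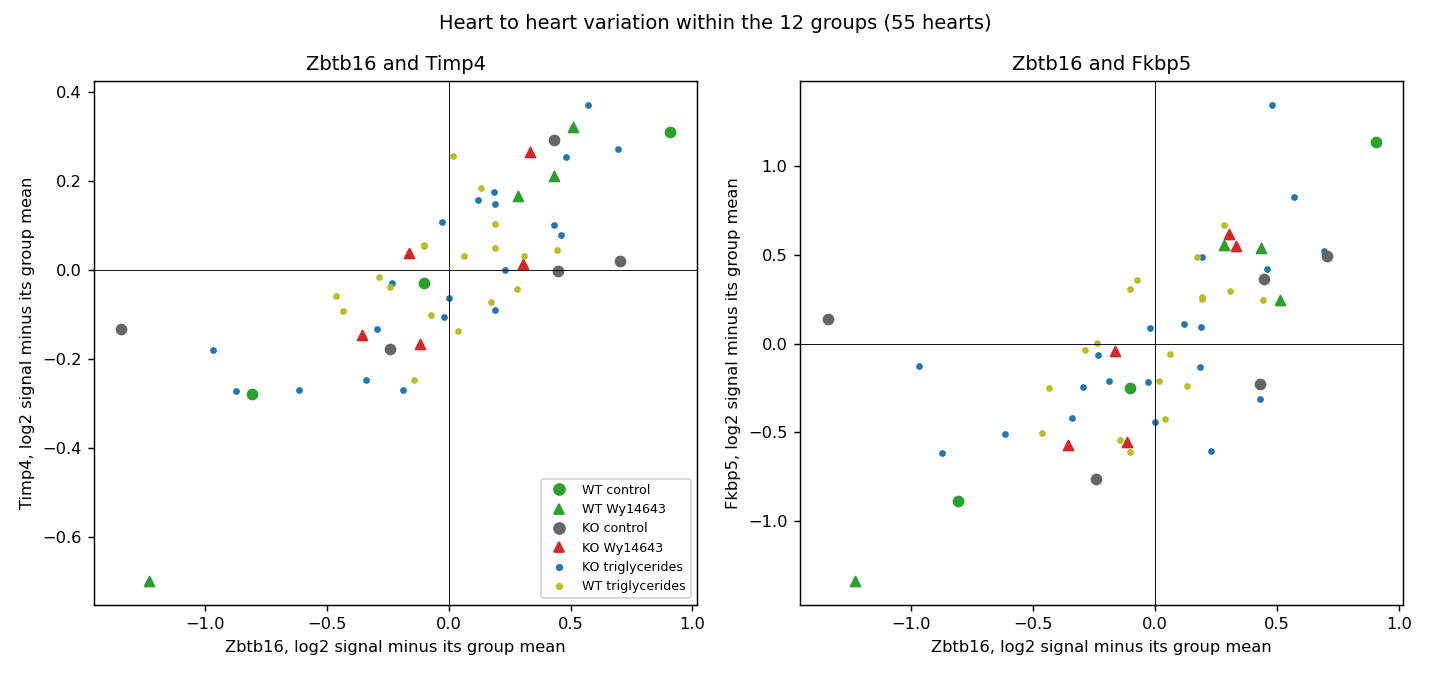
Deviation of each heart from its group mean in log2 signal, Zbtb16 against Timp4 (left) and Fkbp5 (right), for 55 hearts in 12 groups. Points are hearts, coloured by group as the legend gives. Hearts low in Zbtb16 for their group tend to be low in the other gene (r = 0.77 and 0.672), with KO control replicate 4 and WT Wy14643 replicate 1 farthest to the left.

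In WT hearts the 4 risers were not called after Wy14643. Zbtb16 was at 7.63, 8.34 and 9.34 in WT control hearts and 8.33, 9.99, 9.84 and 10.07 after Wy14643, so the groups overlapped through replicate 1 of the treated hearts and replicate 3 of the controls. The change was 1.12 ± 0.39 (adjusted p = 0.373), and the difference of the KO from the WT change was 0.58 ± 0.50 (95% interval -0.42 to 1.59). Rhobtb1 changed by 0.46 ± 0.15, Fam107a by 0.57 ± 0.39 and Timp4 by 0.25 ± 0.16 in WT hearts. Myorg and Cxxc5 changed by -0.31 ± 0.19 and -0.50 ± 0.17. None of the 6 genotype differences was called (adjusted p = 0.9998 for each). Across all 8237 genes the KO and WT changes, which share no sample, correlated at r = 0.312. Genes are not independent replicates, so this is a description.

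Upstream sequences from RefSeq (GRCm38.p6) were searched for 4 of the 6 called genes. Those of Zbtb16 and Cxxc5 were not searched, so nothing is said about their motifs. The upstream sequences are shown for Timp4 and Fam107a, 2 of the genes that rose, as the 250 bases before the start site. Both genes lie on the minus strand, and capitals mark the core of the glucocorticoid response element, ACANNNTGT, searched on both strands. The Fam107a window is that of the second of 3 listed start sites, at chr14:8309780-8310029. The Timp4 window is at chr6:115252206-115252455.
Fam107a: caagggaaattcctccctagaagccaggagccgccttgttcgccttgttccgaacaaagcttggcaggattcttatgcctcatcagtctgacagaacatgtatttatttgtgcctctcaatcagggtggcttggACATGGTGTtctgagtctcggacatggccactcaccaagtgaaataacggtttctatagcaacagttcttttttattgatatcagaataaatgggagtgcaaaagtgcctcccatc
Timp4: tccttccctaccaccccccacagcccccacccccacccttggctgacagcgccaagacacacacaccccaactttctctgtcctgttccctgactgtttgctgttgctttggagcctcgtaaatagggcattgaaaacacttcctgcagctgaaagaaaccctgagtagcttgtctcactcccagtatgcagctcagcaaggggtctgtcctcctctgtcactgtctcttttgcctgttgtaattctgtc
The Fam107a window held 1 match, ACATGGTGT, at position -116 from the start, and the window of the neighbouring start site holds the same site. The window of the first listed Fam107a start site, at chr14:8317608-8317857, held none. The Timp4 window held none, and neither did those of Rhobtb1 or Myorg. Of 32851 promoter windows searched, which also take in 50 bases after the start, 6.85% held the motif. This share is per window, while Fam107a had 3 windows. The same search covered 6 other motifs. The antioxidant response core TGACNNNGC (12.4% of windows) matched at 2 places in the Timp4 window, at -207 and at 6 bases past the start, and at 1 place, -27, for Rhobtb1. Rhobtb1 windows also held an E-box, CACGTG (7.15%), and a TATA box, TATAAA (13.6%), and the Myorg window held the xenobiotic response core GCGTG (32.4%). The nuclear receptor site AGGTCA (16.3%) and the FoxO site GTAAACA (3.65%) had no match in the windows of these 4 genes. The glucocorticoid core was singled out after the called genes were known, so a match is a description of the letters and not of a bound site.

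Markers of other cell types were examined in the same hearts, since in whole tissue fewer cells of a type and less RNA per cell cannot be told apart. Against the KO controls 42% of all bright genes lay above 0. Of 12 fibroblast genes 2 lay above 0 after Wy14643, with a median of -0.10. Col1a1 differed by -0.52 ± 0.20 and Col3a1 by -0.45 ± 0.20, and the mean level of the list per array ran from 8.44 to 8.67 after Wy14643 and from 8.59 to 8.82 in controls. Against triglycerides Col1a1 differed by 0.16 ± 0.16 and Col3a1 by 0.25 ± 0.16. For each, 19 of the 20 triglyceride hearts lay below every KO control heart. The list median against triglycerides was -0.08, with 4 of 12 above 0, beside 46% of all bright genes. Of 9 bright smooth muscle genes 3 lay above 0, with a median of -0.13. Tagln, an actin-binding protein of smooth muscle, was at 6.61, 7.68, 6.59, 8.18 and 7.37 in control hearts and 6.51, 6.79, 6.73, 6.43 and 6.46 after Wy14643, with overlap through control replicates 1 and 3. Its change was -0.70 ± 0.27 in KO and 0.68 ± 0.32 in WT hearts, and neither was called. All 6 bright atrial genes lay above 0, with a median of 0.37 and none called. The atrial regulator of the calcium pump, Sln, was at 8.54, 8.78, 6.36, 10.64 and 10.95 in control hearts and 9.23, 10.77, 10.27, 10.63 and 8.11 after Wy14643. Control replicates 4 and 5 and treated replicates 2 to 4 were high, so atrial signal differed more within the groups than between them. The list mean per array ran from 7.52 to 9.90 in control and 8.20 to 9.93 in Wy14643 hearts. Of 8 ventricular genes 5 lay above 0, from -0.483 to 0.435, with a median of 0.002 and none called. Irx4 was the lowest, at -0.48 ± 0.15 in KO hearts and -0.55 ± 0.19 in WT hearts. Against triglycerides it differed by 0.21 ± 0.12, and 19 of the 20 triglyceride hearts lay below every KO control heart. The endothelial list had 15 bright genes with 6 above 0 and a median of -0.08, the leukocyte list 12 with 9 above 0 and a median of 0.06, and both bright blood genes were lower, with a median of -0.20. No marker gene was called against the KO controls. Against triglycerides Cldn5 of the endothelial list (-1.07 ± 0.24, limma adjusted p = 0.0258) and Fabp4 of the adipocyte list (-0.21 ± 0.05, adjusted p = 0.0362) were called lower. Over all bright genes 1.03% were called there. Only 2 of the 9 measured adipocyte list genes were bright, so Fabp4 alone does not show a difference in adipocytes. The part of these differences in the 6 called changes was not tested.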

How the data were processed

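The deposited values were log2 signals of 45101 probe sets, made by the authors with GCRMA 2.2.0 (background correction, quantile normalization and summary of probes), per the submitters' processing notes. They ran from 0.2196 to 14.87, with array medians of 2.554 to 2.613, and were used as deposited. GCRMA holds array distributions alike, so a shift shared by most genes would not be seen. No source used here gives scan dates or batches, and the number of arrays limits the precision.

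Of the probe sets, 34958 carried 1 gene symbol, 932 several and 9211 none; only the first were used for genes, and 34741 were matched to RefSeq genes by Entrez identifier, with 0 symbols changed. One mean for each of 12 groups was fitted to all 55 arrays with limma 3.58.1 in R 4.3.3 (43 residual and 3.255 prior degrees of freedom), and p-values were adjusted by Benjamini and Hochberg over all 8237 bright genes of a comparison. Called means an adjusted p under 0.05. The fit was tested on simulated data. Errors of log2 changes are SE from this fit.

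The rule named all called genes, then the 5 genes of smallest p in each direction that were not called, and a fixed set of PPAR and drug response genes. Of that set Ucp2, Cpt1b and Por had no probe set of their own symbol and were not analysed here. The genes, the 33 gene and marker lists and the motifs were chosen with earlier results of these data known, and the motif list was shortened after the files were seen. No label says that equal replicate numbers in the 2 KO groups mark paired hearts. Deviations from the group mean of same-numbered hearts correlated across genes at -0.052, 0.11, -0.23, -0.055 and -0.054. The highest value of each control heart with another number was 0.083, 0.055, 0.12, 0.12 and 0.19. With 5 pairs these values cannot exclude a shared day or litter. The alternatives were other filters on dim genes, the mean of all probe sets, renewed quantile normalization, array weights, another variance prior, the replicate number as a block, only the groups compared, other thresholds, and each array left out in turn.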

Additional observations from a re-analysis of the deposited data

Results flagged for a closer look

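WT Wy14643 replicate 1 lay far below the other 3 hearts of its group in 5 genes: Zbtb16 (8.33, the next at 9.84), Fam107a (7.51, the next at 8.92), Timp4 (8.85, the next at 9.71), Rnf144b (8.59, the next at 9.62) and Fkbp5 (6.52, the next at 8.11). KO control replicate 1 lay above the other 4 in Angptl4 (7.79, the next at 7.11) and Acot1 (4.73, the next at 4.06). KO control replicate 4 was low in Rxra (6.72, the next at 6.85), and KO Wy14643 replicate 1 was high in Ttc30b (6.56, the next at 6.19). These are 9 of 132 groups of hearts examined, and chance gives about 1 in 20. The 9 are not independent, since 5 come from 1 array and hearts varied together in several of these genes.

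Probe sets without exactly 1 gene symbol stand outside the comparisons. Fitted on their own, 3 of them were higher in KO hearts after Wy14643 than in KO controls: 1 by 0.96 ± 0.20, 1 by 1.90 ± 0.44 and 1 by 1.70 ± 0.40 (limma, adjusted p = 0.00959, 0.0364 and 0.0405). Another 2 were lower, 1 by -0.64 ± 0.11 (adjusted p = 0.000545) and 1 by -0.35 ± 0.09 (adjusted p = 0.0444). No gene is named for them.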

How the results depend on the processing

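No called change reversed. Over 112 settings the 6 genes called in KO hearts kept their direction in all, and were called in 48. The other named genes, over 697 settings, stayed within the spread of the hearts or on the same side in 674, and 444 of 448 list medians moved by less than 1 SD. The count of 6 became 1 with no filter on dim genes, 3 with the mean of all probe sets, 98 with array weights, 0 with only the groups compared, 0 at an adjusted p under 0.01 and 12 with every bright probe set on its own, a setting added after the data were seen. The comparison with the mean of all 5 other KO groups, also added then and a different contrast, called 10 genes, 0 of them called against the controls. Leaving out 1 array gave 0 to 28. The 5 calls in WT hearts became 15 with a filter at 100, 13 with the mean of probe sets, 14 with renewed quantile normalization, 41 with array weights, 14 with the trended prior and 0 to 16 with 1 array left out. The 0 interactions became 1 with the filter at 100, 2 with the mean of probe sets, 1 with array weights, 1 with the trended prior and 0 to 1 with 1 array left out. The 85 calls against triglycerides became 34 with no filter, 159 with array weights, 14 with only the groups compared and 1 to 167 with 1 array left out. The cause of these moves was not tested. With the replicate number as a block the counts were 7 (KO), 9 (WT), 0 (interaction) and 95 (triglycerides). No label says that these numbers pair the hearts. Among array measures, leaving out 1 heart gave -0.0181 to 0.0516 for the Actb difference of 0.0249 and -0.0114 to 0.00582 for the Gapdh difference of -0.00258. The share of bright probe sets differed by -0.236 to -0.147 percentage points, the first without KO control replicate 4 (exact permutation p = 0.0476). Levels under the brightness minimum, as for Myorg, Acot1, Ucp3, Frem2, Stard4 and Chac1 in KO hearts, limit what their changes can show.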
